A study of Drosophila melanogaster with 4 samples.

Results

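The regions described here are the H3K4me1 peaks on the euchromatic part of 3L, the left arm of chromosome 3 of Drosophila melanogaster, mapped by ChIP-seq in S2-DRSC cells. S2-DRSC is an established male line derived from late embryos, and no treatment or genetic change is given in the labels. The series holds 2 libraries precipitated with a rabbit polyclonal H3K4me1 antibody and 2 input libraries, which contain the sheared chromatin before precipitation. A single deposited peak list represents all of them. Members were all peaks on 3L whose midpoint lay below base 23000000 of FlyBase release 5, which gave 1612 of the 11173 peaks in the list (14.4%). Base 1 is at the telomeric end of the arm and the boundary lies on the side of the centromere. For background, the same measures were taken on 2L, 3R and X, each without the 1.5 Mb nearest its centromere.

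Monomethylation of lysine 4 on histone H3 is a mark known from enhancers, both active and poised, and from sequence beside active promoters. In flies it is known to be placed largely by the methyltransferase Trr, a relative of the mammalian MLL3 and MLL4 enzymes. A peak is a stretch where the peak caller found more ChIP reads than its background model predicts. The list carries 1 start, 1 end and 1 score per peak and no value per library. Each number below therefore describes this list, without an error between replicates, and differences between arms were not tested. Read depth was not analysed here.

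The 3L peaks covered 1777952 bases, or 7.73% of the 23 Mb, at 70.1 peaks per Mb. On this scale 3L stood between its neighbours. 3R had 75.3 peaks per Mb and 8.27% of its bases inside peaks. 2L had 55.9 per Mb and 5.92%, and X had 45.1 per Mb and 5.32%. Against 2L, 3R and X together, which had 60.1 peaks per Mb, the density on 3L was 1.17 times as high. Among the highest-scoring 25% of the whole list this ratio was 1.03, with 9.04 peaks per Mb on 3L and 8.77 on the other arms together.

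Peaks were spread unevenly along 3L, with a dense telomeric end, a sparse middle and a second rise before the boundary. The arm was divided into 23 segments of 1 Mb, numbered from the telomere, and each segment into blocks of 100 kb. Cover, the share of bases inside peaks, ran from 1.86% to 23.8% over the segments, a 12.8-fold range, with a median of 7.20%. Peak number ran from 17 to 177 per segment, with a median of 63. Cover and peak number rose together over the 23 segments (Spearman's correlation 0.90, a description of 1 list). Cover also went with the mean width of a segment's peaks (correlation 0.71), which ran from 660 to 1406 bases. Cover is the product of number and width, so both relations are partly built in. Between peak number and mean width themselves the correlation was 0.40. Segments 2 and 18, with 125 and 106 peaks, had mean widths of 1030 and 1034 bases, below the median of 1071 over the segments.

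**Figure D1:**
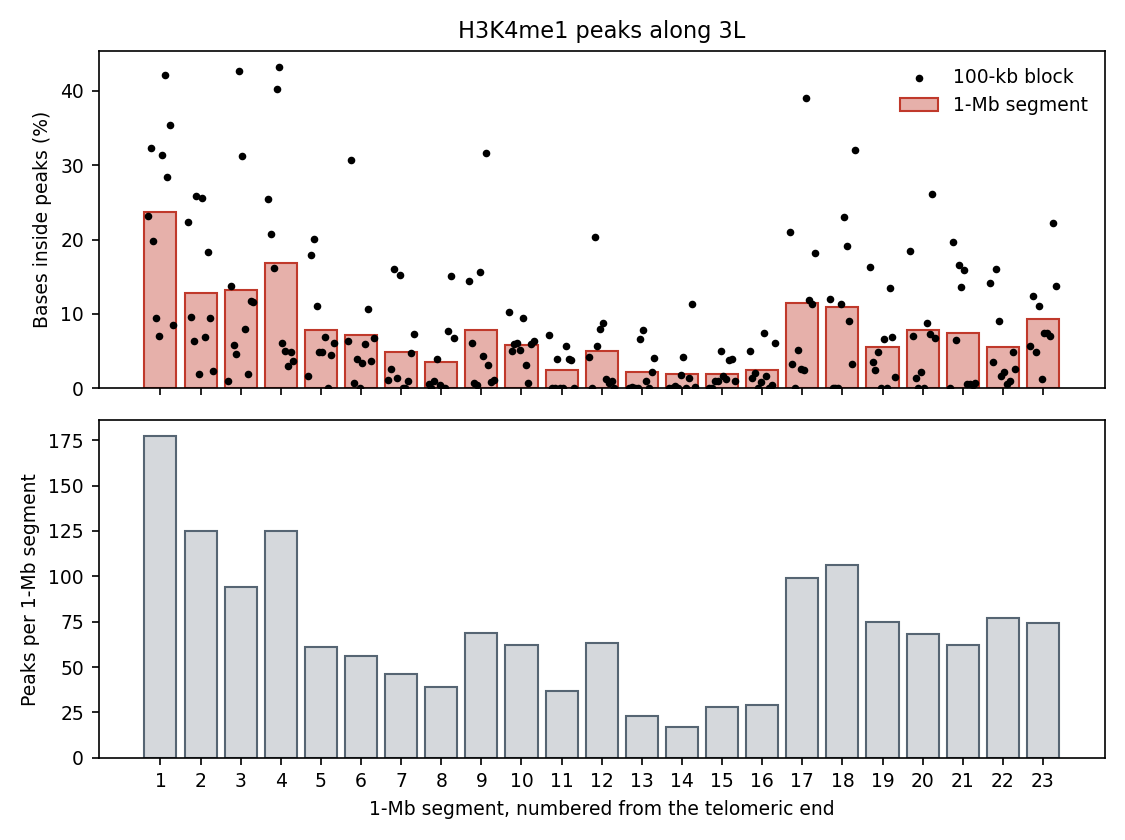
Cover (top: bars for 1-Mb segments, points for their 100-kb blocks, in % of bases) and peak number (bottom) along 3L, with segments in order from the telomere. Segment 1 is the highest in both panels, at 23.8% and 177 peaks, and segments 13 to 16 are all under 3%, with at most 29 peaks.

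The densest segment was the first, at the telomeric end. From base 1 to 1000000 it held 177 peaks and a cover of 23.8% ± 12.3 (SD over 10 blocks). All 10 of its blocks held peaks, with cover from 7.01% to 42.1%. The first peak of the arm began at base 68, so the dense stretch reached the end of the assembled sequence. Segment 4, from 3000001 to 4000000, followed with 16.9% ± 15.3 and 125 peaks, then segment 3 with 13.2% ± 13.5 and 94 peaks. Segment 2 had 12.9% ± 9.34 and 125 peaks. The fifth densest lay far away, from 16000001 to 17000000, with 11.5% ± 12.0 and 99 peaks. In segments 3 and 17 the SD between blocks exceeded the mean, while in segments 1, 2 and 4 it was smaller.

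The 4 telomeric segments together, a stretch chosen after the values were seen, made up 17.4% of the described length and held 521 peaks. These were 32.3% of the 3L peaks and 37.5% of their bases. Cover there was 16.7% ± 13.1 (SD, n = 40 blocks) and none of the 40 blocks was empty. Over the remaining 19 Mb it was 5.85% ± 7.06 (SD, n = 190 blocks), with 35 empty blocks. All empty blocks of the arm thus lay beyond the first 4 Mb. The telomeric 4 Mb of the other arms were also denser than the rest of those arms, with 12.2% against 3.69% on X, 11.2% against 7.75% on 3R and 9.26% against 5.15% on 2L. X held an even larger share of its peaks there, 43.5%, while 3R held 17.8%. Peaks in the telomeric 4 Mb of 3L had a median width of 662 bases, against 538 bases over the rest of the arm. Their median score was 20.2 against 16.8. Since the stretch was chosen with its cover known, these differences are partly built in.

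The sparsest part of 3L lay in its middle. The 5 segments of lowest cover were 15, 14, 13, 11 and 16, with 1.86%, 1.94%, 2.19%, 2.44% and 2.50%. Segment 14, from 13000001 to 14000000, held 17 peaks, the fewest of any segment, and segment 13 held 23. From 10000001 to 16000000, a stretch also chosen after the values were seen, 197 peaks covered 2.65% ± 3.64 (SD, n = 60 blocks), and 19 of the 60 blocks were empty. This stretch was 26.1% of the length and held 12.2% of the peaks. Its peaks were narrow, with a median of 465 bases, and their median score was 14.2, both below the medians of the whole arm, 577 bases and 17.9. Cover includes width, and score rose with width, so both differences are partly built into the choice of the stretch. The segments of this stretch were not alike. The peaks of segment 14 had a median score of 24.5, the highest of the 23 segments, and a median width of 594 bases. Segment 12 differed in density, with 63 peaks and 1 block at 20.3%.

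Toward the centromere the cover rose again at a sharp step. Segment 16 held 29 peaks and segments 17 and 18 held 99 and 106. These 2 segments together had 102.5 peaks per Mb and a cover of 11.2% ± 11.2 (SD, n = 20 blocks), though 4 of their 20 blocks were empty. The rise was uneven over the blocks of segment 17. The block from 16000001 had a cover of 21.0% and that from 16600001 one of 39.0%. The blocks between them had 0% to 5.08%. Segments 19 to 23 held 62 to 77 peaks each, at 5.55% to 9.32%. Beyond the boundary peaks were fewer and their scores higher. The 31 peaks of 3L from base 23000001 on lay at 21.2 per Mb. Their scores had a median of 66.2, and their widths one of 729 bases. The last peak inside the boundary, from 22988779 to 22989942, had a score of 183, and the first outside, from 23065556 to 23068951, had a score of 167.

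Over single blocks of 100 kb the cover had a median of 4.84%, quartiles of 0.97% and 10.5%, and a highest value of 43.2%. Of the 230 blocks, 35 held no peak, or 15.2% (exact 95% binomial interval 10.8 to 20.5, which treats blocks as independent). The share was 15.9% on 3R, 23.3% on 2L and 34.9% on X. At the other end, 25 blocks of 3L (10.9%) were covered by more than 20%, against 9.47% of the blocks on 3R, 9.57% on X and 3.72% on 2L. The mean block was at 7.73% ± 9.33 on 3L (SD, n = 230 blocks) and at 8.26% ± 8.41 on 3R (SD, n = 264 blocks), so the spread between blocks was larger than either mean. The densest 10% of the 3L blocks, 23 blocks, held 39.2% of the bases inside peaks, against 49.3% on X, 38.2% on 2L and 32.3% on 3R.

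**Figure D2:**
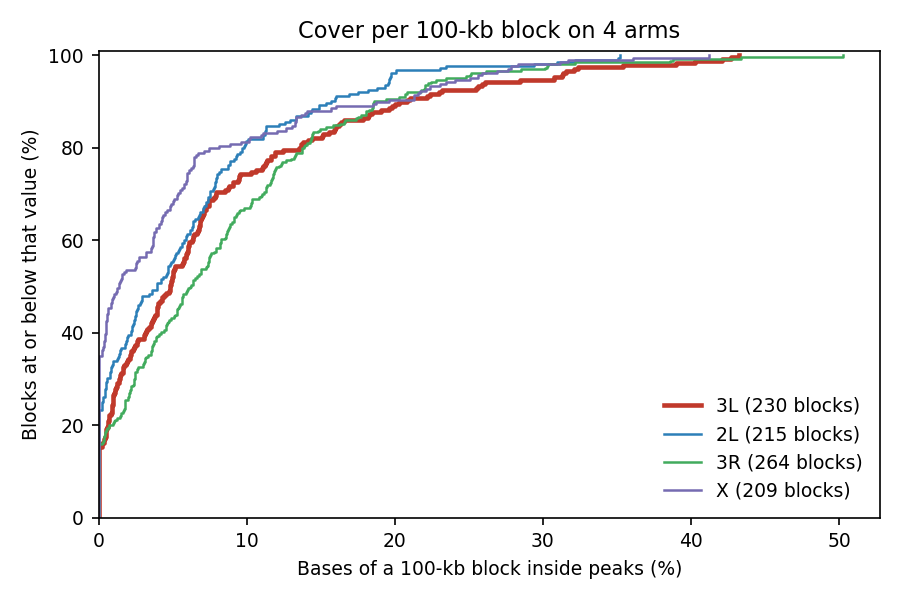
Cumulative share of 100-kb blocks (vertical axis, %) by the percentage of their bases inside peaks (horizontal axis) for 3L, 2L, 3R and X. The 3L line starts at 15.2% of blocks without a peak, close to 3R at 15.9%, and lies lowest of the 4 lines near 30% of bases.

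The 5 densest blocks of 3L fell in 4 neighbourhoods. The block from 3400001 to 3500000 had 43.2% of its bases in 25 peaks, and the block just before it, from 3300001, had 40.3% in 20 peaks. The latter owed 13781 bases to 1 peak, while in the former the widest peak had 5509 bases. The block from 2400001 to 2500000 had 42.7% in 29 peaks, and that from 600001 to 700000 had 42.1% in 22 peaks. Away from the telomeric end, the block from 16600001 to 16700000 reached 39.0% in 27 peaks. Blocks of 20% or more held 31.5% of the 3L peaks and 41.4% of their bases on 10.9% of the blocks. They also held 42 of the 81 peaks of at least 4000 bases. Blocks above 0 and under 5% held 308 peaks and none of that width. A wide peak itself raises the cover of its block, so both counts of wide peaks are largely built in.

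Cover was moderately correlated between neighbouring blocks. Spearman's correlation between a 3L block and the next was 0.40 over 229 pairs of blocks, and it was 0.24 at a distance of 2 blocks and 0.13 at 3. For adjacent blocks it was 0.46 on X, 0.24 on 3R and 0.20 on 2L. These values describe the list, and blocks on an arm share its large-scale gradient.

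Deserts, stretches between neighbouring peaks without any called base, took up much of the arm. There were 54 of at least 100 kb, and together they made up 39.9% of 3L. The same count was 54 on 3R, 48 on 2L and 57 on X, with 34.7%, 43.4% and 59.9% of the length. Deserts of 200 kb or more numbered 13 on 3L, 10 on 3R, 17 on 2L and 21 on X. The longest desert of 3L, 357148 bases, was shorter than the longest of 3R, 2L and X, which measured 368766, 450158 and 813491 bases. Of the 54 deserts, 16 began in the distal 8 Mb, 24 in the middle 8 Mb and 14 in the 7 Mb before the boundary.

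The 5 longest deserts of 3L had edges of different kinds. The longest ran from 11814464 to 12171611. It ended at a peak of 217 bases with a score of 9.66, which was followed by another 230610 bases without a peak. This small peak was the most isolated of the arm. The next, from 7430292 to 7786826, measured 356535 bases and ended at a peak of 1192 bases with a score of 189, at percentile 99.0 of the arm. The third, from 12955019 to 13285139, and the fourth, from 17087245 to 17403509, began at wide peaks of 3996 and 4739 bases with scores of 149 and 97.6. The fifth, from 6425279 to 6738373, lay between a peak of 4660 bases with a score of 119 and one of 229 bases with a score of 9.96. Over all 105 peaks beside a desert of 100 kb or more, the median width was 530 bases and the median score 17.3, near the 577 bases and 17.9 of all 3L peaks.

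Between the deserts the peaks were packed closely. The median distance between neighbours on 3L was 1213 bases, with quartiles of 298 and 7679 bases, and the shortest was 51 bases. Of the 1611 pairs of neighbours, 912 (56.6%) were less than 2000 bases apart and 560 (34.8%) less than 500. These shares were close on the other arms, from 55.7% to 57.3% for 2000 bases and from 32.5% to 36.2% for 500. Cover and empty blocks differed more between arms than the close spacing did.

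**Figure D3:**
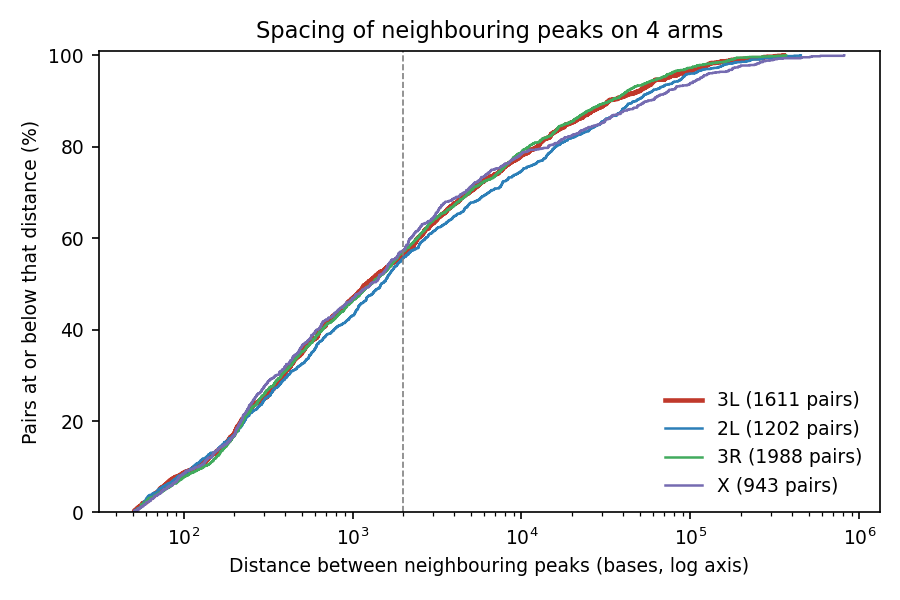
Cumulative share of neighbouring peak pairs (vertical axis, %) by their distance in bases (log axis) on 3L, 2L, 3R and X. The dashed line marks 2000 bases, where the 4 lines lie between 55.7% and 57.3%, and they part at the long distances, where X reaches 813491 bases.

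Chaining neighbours less than 2000 bases apart gave 700 runs on 3L, of which 316 were single peaks. Single peaks made up 19.6% of the members and were 482.5 bases wide at the median, with a score of 14.9. Runs of 10 peaks or more numbered 8 and held 99 peaks with a median width of 635 bases and a median score of 19.6. The longest run went from 3370751 to 3413772 and held 15 peaks, which filled 79.7% of its 43022 bases. It contained the highest-scoring peak of the arm, which lay 1943 and 1874 bases from its neighbours, near the limit of 2000. No other limit was tried for runs. The median score of this run was only 17.1. The second, from 8670929 to 8703114, also held 15 peaks and was filled to 86.0% without any peak wider than 4355 bases. Its median score was 28.5. The third, from 610908 to 639306, held 6 peaks over 28399 bases and had the highest median score of the 3, 106. At the other extreme, 94 peaks (5.83%) had no neighbour within 10 kb of their edges, with a median width of 438.5 bases and a median score of 13.5.

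Peaks on 3L were mostly narrow. The median width was 577 bases, with quartiles of 342 and 1235 bases and a widest peak of 14437 bases. Medians on the other arms were 548 bases on 2L, 608 on 3R and 642 on X. There were 314 peaks under 300 bases (19.5%), which held 4.25% of the bases inside peaks, and 26 peaks had exactly 200 bases, the narrowest width in the list. The 81 peaks of 4000 bases or more were 5.03% of the members and held 26.3% of the bases, against 4.98% and 26.4% on 2L, 3R and X together. Neighbouring peaks were hardly alike in width (correlation 0.06 over 1611 pairs) or in score (correlation 0.14).

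The authors' score has no stated scale, so it was read mainly by rank. The 3L peaks had a median score of 17.9, equal to that of 2L, 3R and X together, and ran from 6.06 to 403. Ranked among the 3L, 2L, 3R and X peaks, their median lay at percentile 50.2, between 2L at 45.6 and 3R and X at 51.3 and 52.7. Of the 3L peaks, 9.06% ranked in the highest 10% of these arms, against 14.9% of the X peaks, 9.56% of those on 2L and 8.60% of those on 3R. The median of 3L was lower, at percentile 39.0, in the whole list, which includes the peaks on heterochromatic and unplaced sequence.

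Score rose with width on 3L (Spearman's correlation 0.81 over 1612 peaks, a description). The median score was 10.3 for peaks of at least 200 and under 300 bases, 18.7 from 500 to under 1000 bases, 56.3 from 2000 to under 4000 bases and 105 from 4000 bases on. In the widest class the 3L peaks had a lower median score than those of 2L, 3R and X together, 105 against 123, while the narrower classes were within 2 score units of each other. No 3L peak of at least 2000 bases was among the lower 50% of the scores. In contrast, 37 peaks under 1000 bases scored in the highest 10% of the arm, at 76.1 or more. Of these, 21 were between 800 and 930 bases wide. The other 62 peaks of that width on 3L had a median score of 23.4 and reached 65.3 at most. No peak of that width scored between 65.3 and 76.7. The window of 800 to 930 bases was chosen after the values were seen and was not applied to other arms. This gap in scores is therefore a description and no test. Of the 37 narrow peaks in the highest 10%, 8 belonged to the trios and pairs described below. Whether reads at the 37 peaks map to a single place was not tested.

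**Figure D4:**
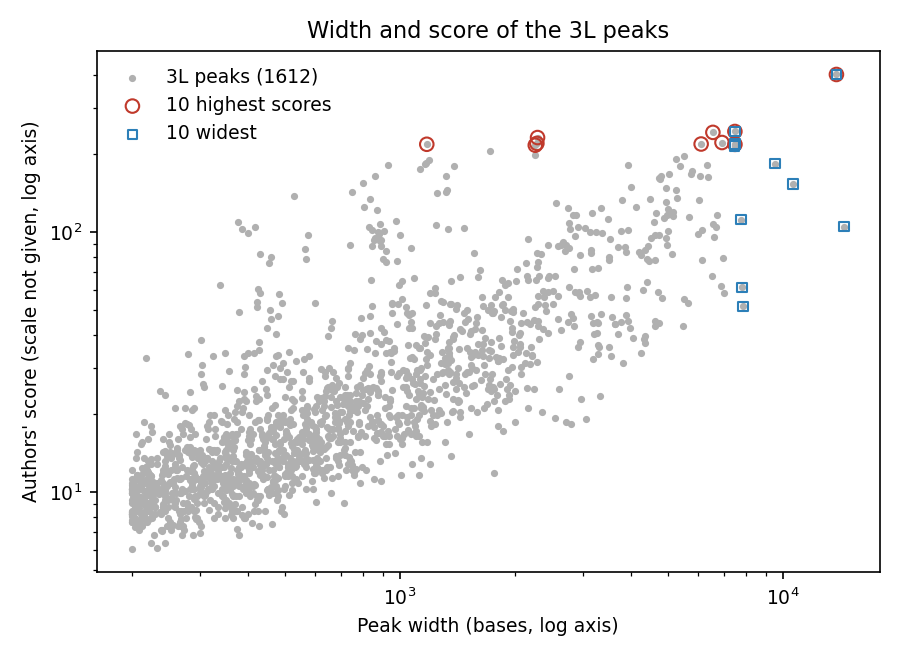
Width (bases) and authors' score of the 1612 peaks on 3L, both on log axes, with the 10 highest scores circled and the 10 widest peaks boxed. Scores rise with width, and a group of peaks lies above the trend, including 21 peaks of 800 to 930 bases with scores of 76.7 to 181.

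The highest-scoring peak of 3L, at 403, lay from 3377910 to 3391690 and was also the second widest with 13781 bases. The next highest scored 243, so it stood well apart. The widest peak, from 2565906 to 2580342 with 14437 bases, had a score of 105 and ranked 79th by score. Others among the 10 widest also scored lower, such as the peak from 20523336 to 20531179, with 7844 bases and a score of 51.7, and that from 5168288 to 5176115, with 7828 bases and a score of 61.2. The third widest, from 5104550 to 5115164 with 10615 bases and a score of 153, had no other peak within 10 kb, counted between midpoints. The fourth, from 629768 to 639306, had 9539 bases and a score of 183. The seventh, from 779208 to 786965, had 7758 bases and a score of 111.5. Of the 10 widest peaks, 3 were also among the 10 with the highest score.

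Both other peaks on the 2 lists had nearly the same width. They lay from 22548902 to 22556385, with 7484 bases and a score of 243, and from 8491398 to 8498884, with 7487 bases and a score of 217. The list holds another peak of such a width on 3L, from 22610296 to 22617763, with 7468 bases and a score of 213, which ranked 11th. All 3 had no other peak within 10 kb between midpoints. The peaks at 22548902 and 22610296 were direct neighbours, 53910 bases apart. Peaks of 7400 to 7600 bases numbered 3 on 3L and, over the whole of the other arms, 11 on 2L, 5 on 2R, 5 on 3R and 0 on X.

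Of the 7 other peaks among the 10 highest scores, 3 lay in none of the layouts described next. They ran from 621430 to 627986 with a score of 241, from 20470267 to 20477192 with a score of 221 and from 4901189 to 4907298 with a score of 218. Their widths were 6557, 6926 and 6110 bases. The last of them was followed by 126934 bases without a peak.

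The remaining 4 peaks belonged to 3 of 4 trios of neighbouring peaks with a repeated layout, noticed after the values were seen. The search took a peak of 2200 to 2300 bases, then 4300 to 4400 bases without a peak, then 2 peaks less than 700 bases apart. The likeness of these widths and stretches is therefore partly built in. Scores and the other widths were not limited. Each trio had a peak of 2254 to 2285 bases with a score of 197 to 230. A stretch of 4328 to 4354 bases without a peak followed, then a low peak of 424 to 474 bases with a score of 40.6 to 54.0. After a further 290 to 390 bases came a peak of 928 to 1379 bases with a score of 174 to 217. Trio 1 lay from 857953 to 866567 and trio 2 from 2927825 to 2936156, both with the 2.3-kb peak on the telomeric side. Trio 3, from 3061208 to 3069908, and trio 4, from 21008019 to 21016571, had the mirrored order. The other 14 peaks of 3L between 2200 and 2300 bases wide scored from 24.9 to 83.1. Over whole arms the same search found 3 trios on 3R, 2 on 2L, 2 on 2R, 1 on X and 1 on chromosome 4.

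Pairs of 2 kinds with a repeated layout, also noticed after the values were seen, recurred on 3L. In 4 places a peak of 6573 to 6703 bases with a score of 96.0 to 116 lay 234 to 312 bases from a peak of 377 to 417 bases with a score of 99.4 to 109. These pairs spanned 7245 to 7315 bases. They lay from 925316 to 932606, from 2966850 to 2974153, from 17723986 to 17731230 and from 19110214 to 19117528, the last 2 in mirrored order. In 3 further places a peak of 5794 to 6371 bases with a score of 163 to 180 lay 328 to 344 bases from one of 801 to 861 bases with a score of 134 to 164. These were found from 1506039 to 1513579, from 10053311 to 10060789 and from 11257558 to 11264540. Pairs of the first kind numbered 3 on 3R, 3 on 2R, 2 on 2L and 1 on X, and pairs of the second kind 2 on 3R, 2 on 2R, 1 on X and 0 on 2L. The first search took 6500 to 6800 bases beside 350 to 450, and the second 5700 to 6400 beside 800 to 900. Both took distances under 350 bases. These limits and those of the trios were set around the cases on 3L. The likeness within each kind is therefore partly built in, and the counts on the other arms are no test. Sequence at the trios and pairs was not analysed here. Whether reads there map to a single place was not tested, so their scores may not be comparable with those of other peaks. The same was not tested for any other peak, including those of 7468 to 7487 bases. Further pairs of like widths on 3L fell outside these searches and were not counted. Among them were the last peak inside the boundary, of 1164 bases, and the peak of 1192 bases ending the second longest desert. Each lay beside a much wider peak.

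**Figure D5:**
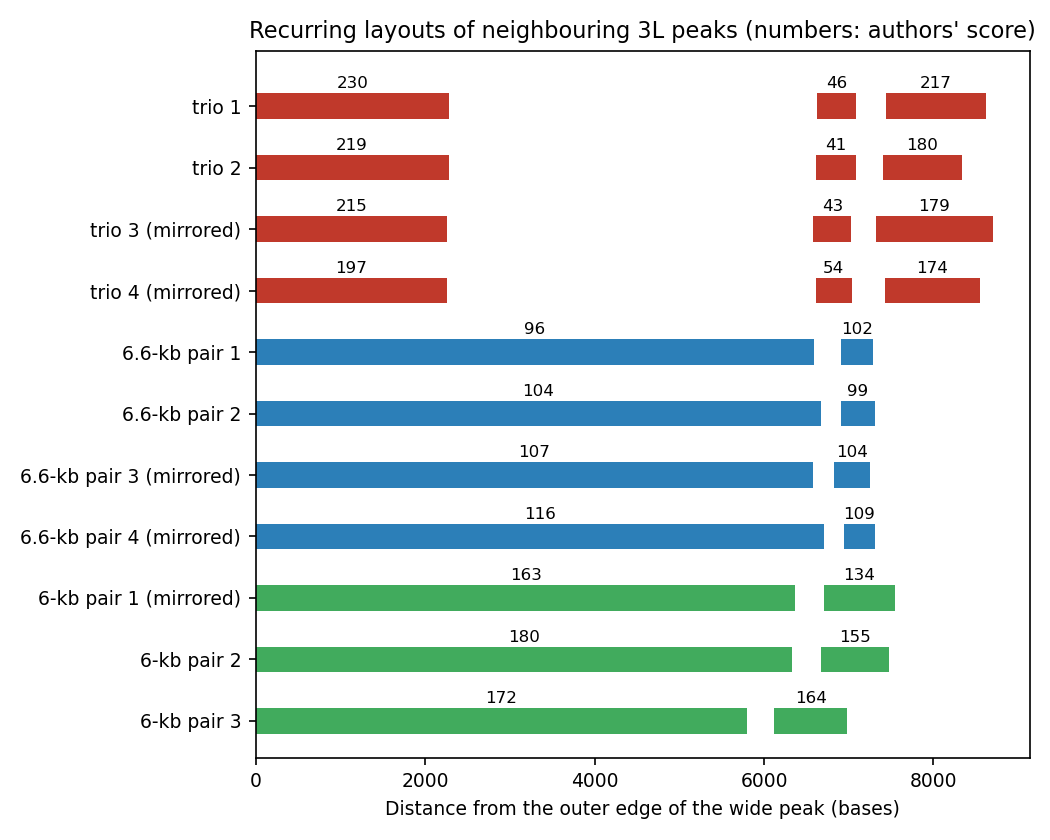
Trios (red) and 2 kinds of pairs (blue, green) of neighbouring 3L peaks, drawn to scale as distance in bases from the outer edge of the wide peak, with the authors' score above each bar. The 4 trios have a stretch without a peak of 4328 to 4354 bases, where the search allowed 4300 to 4400. Mirrored cases are flipped for display.

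The last peak of the arm inside the boundary, with 1164 bases and a score of 183, ranked 19th by score, while the first peak, from 68 to 794, had a score of 18.7 and ranked in the middle of the arm, at percentile 52.5. Among the most isolated peaks, that from 13285140 to 13285478 had 339 bases, a score of 62.3 and at least 197508 bases to either neighbour. The peak from 13998909 to 13999108 had the smallest width of the list, 200 bases, a score of 9.96 and at least 182969 bases to either neighbour.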

How the data were processed

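H3K4me1 ChIP-seq was done on S2-DRSC cells, with 2 ChIP and 2 input libraries, and 1 peak list for the whole series was used. Per the file headers, positions are on FlyBase r5 and the source column names MACS. Per the submitters' processing notes, CASAVA (1.7.0.2 and 1.7.0.3), BWA, MACS2 and build BDGP5 were used, with no roles given. The deposited score of each peak was made by the authors, and its scale is not given in the sources used here, nor are the peak threshold and the way the libraries were combined. Starts in the file count from 0 and were printed from 1, and width is end minus start.

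Peaks were summarised with Python 3.11.15, numpy 2.4.6, pandas 2.3.3 and scipy 1.17.1, and drawn with matplotlib 3.10.9. Peaks were assigned by midpoint, and bases inside peaks were summed over blocks of 100 kb and segments of 1 Mb. Arm ends were taken from the last peak of 2L, 3R and X. No test was run, since the list has no value per library. Membership, cover of blocks and a planted empty stretch were checked on simulated lists. All simulated peaks had the same width and score, so widths, score ranks, runs, trios and pairs were not checked this way. Alternatives were other blocks, stricter scores, a minimum width, joined peaks and other arm limits.

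Peaks and regions named are the 10 highest scores, 10 widest peaks, 5 densest and 5 sparsest segments, 5 densest blocks, 5 longest deserts, 3 longest runs, and first, last and boundary peaks. Others were chosen after their values were seen. Members and lists were chosen with earlier results of these data known. The gene table at hand is on Release 6, so no gene is named and no sequence is printed.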

Additional observations from a re-analysis of the deposited data

How the results depend on the processing

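Of 45 repeats under another setting, 32 kept their value within the limits used, 13 moved and 0 reversed. The limit was 1.5 times for ratios, lengths, medians and shares of bases, an overlapping 1-Mb stretch for the densest segment, and the exact binomial interval for shares of blocks or pairs. The limit of 1.5 times is wide for a ratio near 1. The density of 3L relative to 2L, 3R and X, 1.17 times in the main setting, ran from 1.03 to 1.18 and always counted as kept. So did the median score percentile of 39.0 in the whole list, against 50.2 in the main setting. The densest segment was again the first in 4 of 5 repeats. The fifth, with segments shifted by 500 kb, leaves out the first 500 kb, and its densest segment began at 500001.

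The share of blocks without a peak was 33.5% with blocks of 50 kb and 4.35% with blocks of 200 kb. It was 33.5% when peaks below the median score of the list were left out and 58.7% among the highest-scoring 25%. In those 2 lists the longest desert was 836994 and 1366866 bases, and the share of close neighbours 35.3% and 18.4%. With peaks of 300 bases or more, the longest desert was 587975 bases and the close share 51.2%. At distances of 1000 and 5000 bases that share was 46.7% and 70.3%. Joining peaks less than 500 bases apart raised the median width to 984.5 bases. Each of these changes follows from fewer peaks, other blocks, another distance or joined peaks. No paired analysis was possible because the 1 list carries no value per library, and no replicate could be left out for the same reason. Read depth was not analysed here, so a desert may lack the mark or lack reads.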
